A study of Mus musculus with 12 samples.

Results

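The 9 genes described here make, split and move glutamine, glutamate and ammonia in the liver. They were taken by name from a fixed list, and the list was chosen with earlier results of these data known. Entrez identifiers of the count table were mapped to mouse symbols to find them. All 9 were among the 27179 genes counted, and all 9 passed the filter on low counts that left 13947 genes for testing. Glul encodes glutamine synthetase and Gls2 the liver-type glutaminase. Rhbg encodes an ammonia transporter of the plasma membrane. Oat and Glud1 encode ornithine aminotransferase and glutamate dehydrogenase. Got1 and Got2 encode the cytosolic and mitochondrial aspartate aminotransferases, and Gpt and Gpt2 the cytosolic and mitochondrial alanine aminotransferases.

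The liver clears ammonia in zones. Hepatocytes around the portal vein hold glutaminase and the urea cycle, which release ammonia from glutamine and turn it into urea. A thin layer of hepatocytes around the central vein holds glutamine synthetase, the ammonia transporter Rhbg and ornithine aminotransferase, and it fixes the ammonia that is left into glutamine. Wnt/β-catenin signaling sets this central pattern, and Glul is a classic β-catenin target. The aminotransferases pass amino groups between glutamate and aspartate or alanine, and glutamate dehydrogenase links glutamate to free ammonia.

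RNA was sequenced in bulk from 12 snap-frozen mouse livers in 4 groups of 3, with 1 library per mouse. All were young adult males fed a chow diet (CD) or a diet low in protein (LPD) from before the injection onward, and plasmids with Sleeping Beauty transposase were pushed into the tail vein under pressure, which delivers them to hepatocytes. The plasmids were empty vector (Vec, called WT in the sample titles) or carried human c-MET and ΔN90-β-catenin, a truncated and constitutively active β-catenin (c-MET/β-catenin, written Onc here), and every group was harvested when the CD Onc mice reached their end point. The mouse background is described both as a mix of 129/Ola and C57BL/6 and, in the methods, as C57/Bl3. Only part of the hepatocytes takes up the plasmids, so an Onc liver holds cells with and without the oncogenes. At the common harvest, the paper reports a lower tumor burden in LPD Onc than in CD Onc mice. In whole Onc livers, a diet effect on a gene and a smaller share of tumor cannot be told apart. Alignment was to the mouse genome, so human c-MET has no value here.

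Libraries held 19476209 to 31990267 counts, and the 9 genes together took 0.37% to 1.43% of the counts of a library. The labels give the cell type as hepatocyte, but the material was whole liver. All 8 hepatocyte markers were detected in every group, with summed levels of 92920 to 156000 CPM (counts scaled to a common library total) over the 12 libraries. With the oncogenes on CD, 2 of these 8 were higher and 3 lower (Apoa2 0.417-fold), and in Onc livers 1 was higher and 3 lower on LPD. Of all genes, 18.7% were higher and 16.7% lower with the oncogenes on CD. In Onc livers 8.66% of all genes were higher and 11.3% lower on LPD. Several markers of other cells moved with the CD Onc group. Of 9 stellate cell or fibroblast markers, 5 were higher and 2 lower with the oncogenes on CD (Col1a1 15.1-fold and Acta2 7.54-fold), and in Onc livers 5 were lower and 2 higher on LPD. Their sum was 272.2 to 720.4 CPM in CD Onc livers and 229.7 to 333.7 CPM in the others. Of 9 macrophage markers, C1qa and C1qb were higher on CD, and of 6 endothelial markers 1 was lower, where 18.7% of all genes were higher and 16.7% lower. The macrophage markers summed to 253.2 to 410.8 CPM in CD Onc and to 258.1 to 462.9 CPM in LPD Onc livers. In CD Vec and LPD Vec livers they summed to 125.3 to 281.8 and 190.6 to 239.8 CPM. Their median log2 fold change with the oncogenes was 0.66 on CD and 0.73 on LPD. On LPD 0 of 9 were called, against 1.32% of all genes. The 5 cholangiocyte markers summed to 120.8 to 381.7 CPM in CD Onc livers and to 36.79 to 57.62 CPM in the other 9 livers. Spp1 made up most of the sum in CD Onc livers (log2 CPM of 8.525, 8.131 and 6.793). Of these, Spp1 (7.29-fold) and Krt19 (7.50-fold) rose on CD, and Krt7, Epcam and Sox9 did not pass the test (log2 fold changes 0.33, -0.50 and -0.41). Neutrophil markers summed to 4.904 to 14.99 CPM in CD Onc livers and to at most 3.539 CPM elsewhere. The part of these cells in the results was not tested. In whole liver, fewer cells of a type and less RNA per cell cannot be told apart. On the second principal component, CD Vec replicate 2 stood apart from the other 11 libraries. Dataset numbers in the header of the count table fall into 3 runs that the labels do not explain. CD Onc replicates 1 and 2 made up 1 run, CD Vec replicates 1 and 2 with LPD Vec replicate 1 made up another, and the other 7 libraries the third.

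Upstream sequence is shown for Glul and Oat, which were higher in Onc livers on both diets, and for Got1, which was called lower on LPD in Onc livers in the fit of all libraries. Each line gives the 250 bases before the annotated start, 5′ to 3′ on the strand of the gene, from RefSeq on GRCm38.p6, the patch release of the mm10 genome used by the authors. Capitals mark matches to the motifs named after the lines.
Glul, chr1:153899679-153899928, plus strand: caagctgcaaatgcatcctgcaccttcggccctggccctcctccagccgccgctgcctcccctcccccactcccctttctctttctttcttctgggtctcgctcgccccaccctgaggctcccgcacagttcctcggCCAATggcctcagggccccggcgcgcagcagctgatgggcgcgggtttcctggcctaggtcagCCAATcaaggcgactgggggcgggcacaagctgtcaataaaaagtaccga
Oat, chr7:132576399-132576648, minus strand: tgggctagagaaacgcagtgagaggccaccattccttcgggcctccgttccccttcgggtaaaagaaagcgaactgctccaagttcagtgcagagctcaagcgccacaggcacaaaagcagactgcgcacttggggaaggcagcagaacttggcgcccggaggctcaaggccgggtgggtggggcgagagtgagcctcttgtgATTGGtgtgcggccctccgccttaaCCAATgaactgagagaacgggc
Got1, chr19:43524606-43524855, minus strand: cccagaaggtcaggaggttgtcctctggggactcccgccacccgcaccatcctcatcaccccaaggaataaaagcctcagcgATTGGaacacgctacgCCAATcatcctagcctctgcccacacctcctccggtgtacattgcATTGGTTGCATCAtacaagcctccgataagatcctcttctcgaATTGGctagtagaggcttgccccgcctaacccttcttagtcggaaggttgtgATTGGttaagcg
The RefSeq table held a promoter for 6 of the 9 genes, namely Glul, Oat, Glud1, Got1, Got2 and Gpt2. Both strands were searched for 6 motifs. The TCF/LEF forms CTTTGAT and CTTTGTT, through which β-catenin acts, matched 0 of the 6 windows, against 3.21% and 5.03% of 32851 promoter windows of the same length. The amino acid response form TGATGNAA matched 1 of 6, in Got1 at 102 bases before the start, and 3.45% of all windows. The CCAAT box matched Glul, Oat and Got1, or 3 of 6, with 5 matches in Got1, and 33.8% of all windows. In Got1, the response form and a CCAAT match 107 bases before the start lie side by side with no shared base. TATAAA matched Got2 only, where all windows gave 12.4%, and the E-box CACGTG matched 0 of 6 and 6.02% of all windows. These are matches of letters, and enhancers outside the windows were not searched.

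The first question was what the oncogenes did to these genes on each diet. On CD, 7 of the 9 genes differed between Onc and Vec livers by edgeR's quasi-likelihood test at an adjusted p under 0.05, 4 of them higher and 3 lower. Of all genes tested, 35.4% were called in this comparison, 18.7% higher and 16.7% lower. On LPD, 3 of the 9 were called, all of them higher, where the share of all genes was 1.32% in either direction and 1.15% higher. The 3 genes raised on LPD, Glul, Rhbg and Oat, were among the 4 raised on CD. Without sign, the members' median log2 fold change was 0.99 on CD and 0.45 on LPD, and over all genes it was 0.43 and 0.17. Per-mouse levels of each gene are plotted by group.

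**Figure D1:**
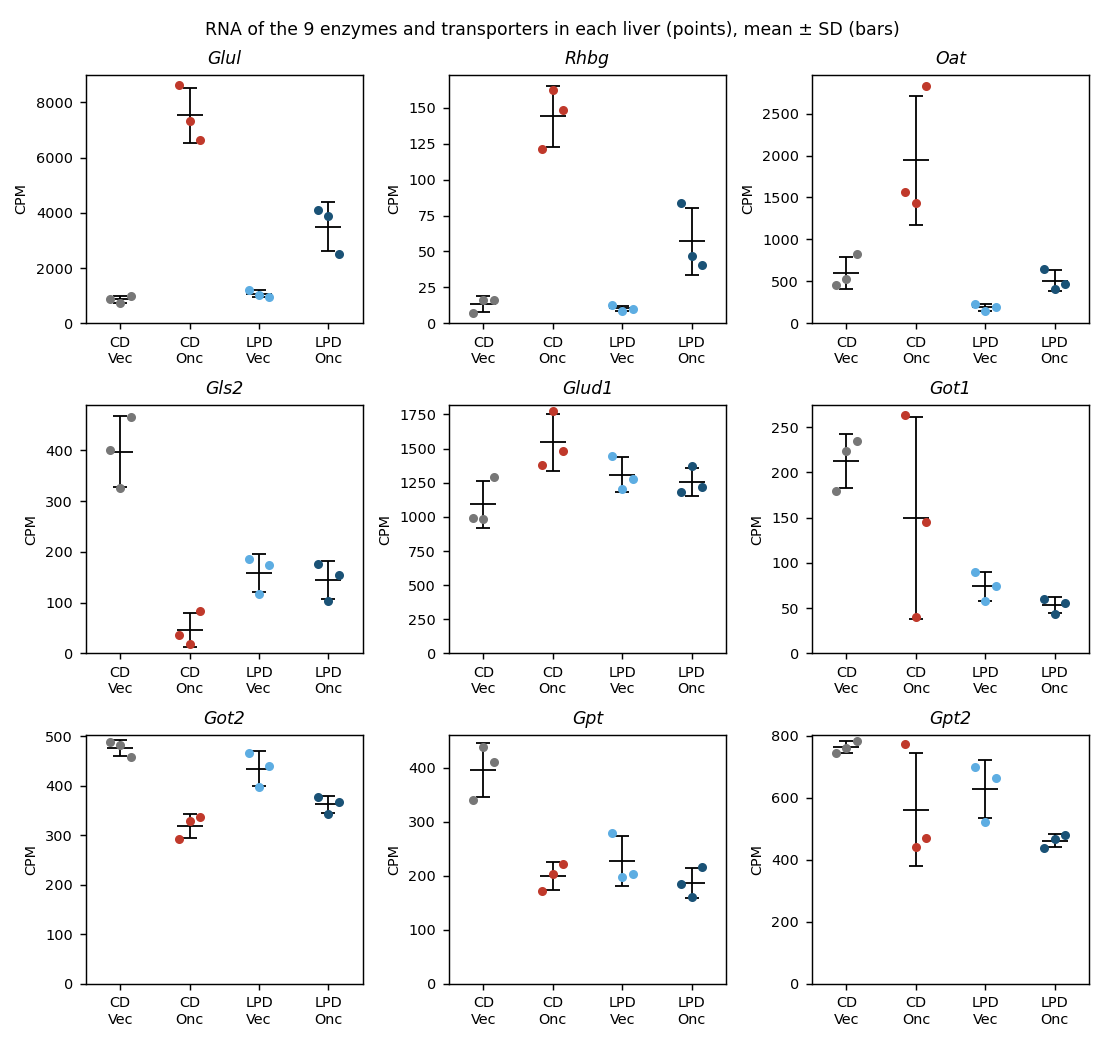
Level of each gene in CPM (vertical axis, from 0) in every liver of the 4 groups, with points for mice and bars for mean ± SD (n = 3, Onc: c-MET/β-catenin). Glul and Rhbg were highest in CD Onc livers (7524 and 144.1 CPM on average) and Gls2 was lowest there (46.32 CPM).

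Glul (Entrez 14645, mm10 chromosome 1 from 153899929 to 153909723, plus strand), the enzyme that fixes ammonia onto glutamate, had the highest level per kilobase of the 9 genes in the Onc groups. Its level was 887.6, 745.2 and 993.5 CPM in CD Vec replicates 1, 2 and 3, and 8611, 7323 and 6637 CPM in the CD Onc livers. In LPD Vec it was 1211, 1037 and 951.7 CPM, and in LPD Onc 4112, 3889 and 2490 CPM. Each Onc liver was above each Vec liver on both diets. The log2 fold change of Onc over Vec was 3.10 on CD (SE 0.22, adjusted p = 8.9e-06) and 1.71 on LPD (SE 0.21, adjusted p = 0.00241), or 8.59-fold and 3.28-fold. These changes differed, with an interaction (the LPD change minus the CD change) of -1.39 (SE 0.29, adjusted p = 0.0169). The diets could not be separated in Vec livers, where LPD minus CD was 0.28 with a 95% interval of -0.16 to 0.73. In Onc livers Glul on LPD was at 0.465 of its CD level (log2 fold change -1.11, SE 0.21, adjusted p = 0.0042). In the order of the levels, CD Onc stood above LPD Onc and that above both Vec groups, which did not differ beyond their spread. By length, Glul reached a mean of 2260 RPKM (CPM per kilobase of exon) in CD Onc livers, and the next gene there, Oat, 824.

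Rhbg (Entrez 58176, chromosome 3 from 88242874 to 88254739, minus strand), which lets ammonia cross the membrane, had the lowest level per kilobase of the 9 genes in Vec livers. CD Vec replicates had 6.877, 16.49 and 16.45 CPM, and LPD Vec replicates 12.62, 8.702 and 9.693 CPM. In CD Onc livers it was 121.1, 162.7 and 148.5 CPM, and in LPD Onc livers 83.76, 46.77 and 40.5 CPM. All oncogene livers exceeded all Vec livers, and the CD oncogene livers exceeded the LPD ones. The log2 fold change was 3.44 on CD (SE 0.36, adjusted p = 5.63e-05) and 2.46 on LPD (SE 0.35, adjusted p = 0.00601). LPD against CD in Onc livers gave -1.34 (SE 0.33, adjusted p = 0.0149). This call was lost without LPD Onc replicate 2 (-1.21, adjusted p = 0.0583) or replicate 3 (-1.14, adjusted p = 0.064). The interaction, at -0.98 with a 95% interval of -2.01 to 0.05, did not pass the threshold (adjusted p = 0.214). Glul and Rhbg were the closest pair among the members. Their root mean square distance was 0.277 SD units over the 12 libraries, on log2 CPM standardized per gene.

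Oat (Entrez 18242, chromosome 7 from 132557475 to 132576398, minus strand), which moves the amino group of ornithine to make glutamate, was higher with the oncogenes and lower on LPD. It stood at 461.1, 525.6 and 820.0 CPM in CD Vec, and at 1565, 1438 and 2831 CPM in CD Onc. On LPD the Vec livers had 230.2, 145.4 and 189.1 CPM, and the Onc livers 649.5, 407.4 and 469.4 CPM. LPD Onc livers thus overlapped with CD Vec livers, while LPD Vec livers were the lowest. Injection of the oncogenes raised it on the log2 scale by 1.69 on CD (SE 0.31, adjusted p = 0.00148) and 1.43 on LPD (SE 0.31, adjusted p = 0.0456). The LPD call was lost with a stricter filter (1 CPM in 6 libraries, adjusted p = 0.0504) and held in 4 of 12 fits that each left out 1 library (adjusted p from 0.0236 to 0.207). It was lost without CD Vec replicate 1 or 2 (adjusted p = 0.0541 and 0.053) and without any one of the 6 LPD libraries (log2 fold change 1.22 to 1.60). LPD against CD gave -1.93 in Onc livers (SE 0.31, adjusted p = 0.00192) and -1.68 in Vec livers (SE 0.31, adjusted p = 0.0504). The interaction was -0.26 with an interval of -1.19 to 0.68. A contrast of diets averaged over both injections, added after the values were seen, gave -1.81 (SE 0.22, adjusted p = 0.00154), where 3.63% of all genes were called lower. It was called in 12 of 12 fits that left out 1 library.

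Gls2 (Entrez 216456, chromosome 10 from 128194635 to 128210004, plus strand), which frees ammonia from glutamine, moved against Glul on CD. Its level was 400.2, 325.9 and 465.8 CPM in CD Vec and 35.53, 19.38 and 84.04 CPM in CD Onc. On LPD it was 185.6, 116.7 and 173.7 CPM in Vec and 175.8, 103.7 and 153.9 CPM in Onc. The CD groups were far apart, and the LPD groups lay over each other between them. The log2 fold change was -3.10 on CD (SE 0.46, adjusted p = 0.000459) and -0.14 on LPD (SE 0.42, adjusted p = 0.958), with an interval of -1.06 to 0.79 on LPD. The interaction was 2.97 (SE 0.61, adjusted p = 0.0168). Without LPD Vec replicate 2 it was 2.78 and just missed the threshold (adjusted p = 0.0529). In Vec livers LPD gave -1.32 (SE 0.43, adjusted p = 0.26), and all LPD Vec livers were below all CD Vec livers. In Onc livers LPD gave 1.64 (SE 0.43, adjusted p = 0.0214). It missed the threshold without CD Onc replicate 1 (1.48, adjusted p = 0.0804), LPD Onc replicate 1 (1.48, adjusted p = 0.0664) or LPD Onc replicate 3 (1.60, adjusted p = 0.0588).

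Of the relatives of Rhbg, Rhag had 11, 9 and 9 counts in the CD Onc livers and 0 counts in the other 9 libraries. Rhcg had 0 counts in all 12 libraries, which allows up to 3 counts in each.

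Glud1 (Entrez 14661, chromosome 14 from 34310727 to 34345033, plus strand), which joins or releases ammonia at glutamate, was called in 1 comparison. It stood at 995.4, 987.9 and 1291 CPM in CD Vec and at 1380, 1778 and 1480 CPM in CD Onc. LPD livers had 1449, 1203 and 1274 CPM with Vec and 1179, 1373 and 1218 CPM with the oncogenes. Only the CD groups were separated by injection. On CD the log2 fold change was 0.50 (SE 0.16, adjusted p = 0.0283). It missed the threshold without CD Onc replicate 2 (0.39, adjusted p = 0.107), CD Vec replicate 1 (0.44, adjusted p = 0.0908) or CD Vec replicate 2 (0.43, adjusted p = 0.0799), and in a fit of the 2 CD groups alone (0.48, adjusted p = 0.129). On LPD it was -0.06 with an interval of -0.41 to 0.29, and it was 0.06 with scaling to total counts alone. No pair of neighbours in the order of its 4 levels differed beyond their spread.

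Of the aspartate aminotransferases, Got2 fell with the oncogenes on CD and Got1 was the more variable. Got2 (Entrez 14719, chromosome 8 from 95864133 to 95888401, minus strand) had 488.3, 482.6 and 457.2 CPM in CD Vec and 291.7, 328.4 and 337.1 CPM in CD Onc. In LPD livers it was 466.3, 396.8 and 440.2 CPM with Vec and 377.1, 342.8 and 367.4 CPM with the oncogenes. Oncogene livers lay below Vec livers on both diets. The log2 fold change was -0.58 on CD (SE 0.12, adjusted p = 0.00289) and -0.26 on LPD (SE 0.12, adjusted p = 0.446). With scaling to total counts alone, which put the median change over all genes on CD (log2) at 0.278 in place of -0.01, the CD value of Got2 was -0.29 (adjusted p = 0.061).

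Got1 (Entrez 14718, chromosome 19 from 43499752 to 43524605, minus strand) had 179.0, 224.1 and 234.5 CPM in CD Vec and 263.4, 40.47 and 144.8 CPM in CD Onc. On LPD it was 89.87, 57.79 and 74.62 CPM with Vec and 60.59, 43.61 and 55.23 CPM with the oncogenes. The CD Onc livers spanned the range of the other groups, with a coefficient of variation of 74.6%, against 13.9% to 21.7% in the others. Injection gave -0.51 on CD (adjusted p = 0.433) and -0.48 on LPD (adjusted p = 0.829). LPD against CD gave -1.52 in Vec livers (SE 0.48, adjusted p = 0.249), where all LPD livers were lower. In Onc livers it gave -1.49 (SE 0.48, adjusted p = 0.049), with overlapping groups. The latter call held in 1 of 12 fits that left out a library, the one without CD Onc replicate 2 (adjusted p = 0.00182), and the other 11 gave adjusted p up to 0.225. Averaged over injections, LPD against CD gave -1.51 (SE 0.34, adjusted p = 0.026), a contrast added after the values were seen. It was called in 5 of 12 fits that left out 1 library (adjusted p from 0.00224 to 0.0649), and lost without CD Vec replicate 3 (adjusted p = 0.0555) or any one of the 6 LPD libraries. It was also lost with a term for the header runs (-1.47, adjusted p = 0.127) and with no filter on low counts (-1.50, adjusted p = 0.0617).

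Both alanine aminotransferases had their highest mean in CD Vec livers. Gpt (Entrez 76282, chromosome 15 from 76696726 to 76699675, plus strand) had 340.3, 437.7 and 409.5 CPM there, and 171.3, 203.8 and 222.1 CPM in CD Onc. LPD livers had 279.4, 197.9 and 202.4 CPM with Vec and 184.2, 159.7 and 215.8 CPM with the oncogenes. The CD Vec livers stood above all others. On CD the oncogenes lowered Gpt to 0.503 of its Vec level (log2 fold change -0.99, SE 0.18, adjusted p = 0.00129). On LPD the difference was -0.28 (adjusted p = 0.652, interval -0.67 to 0.11), and the interaction was 0.71 (SE 0.25, adjusted p = 0.0969). LPD against CD in Vec livers gave -0.80 (SE 0.18, adjusted p = 0.0801).

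Gpt2 (Entrez 108682, chromosome 8 from 85492576 to 85528902, plus strand) had 744.7, 762.2 and 782.6 CPM in CD Vec and 772.8, 442.1 and 470.8 CPM in CD Onc. In LPD Vec it was 698.6, 520.8 and 665.2 CPM, and in LPD Onc 438.0, 466.6 and 478.6 CPM. CD Onc replicate 1 lay among the Vec livers, and the other 5 oncogene livers lay below all 6 of them. The log2 fold change was -0.44 on CD (SE 0.20, adjusted p = 0.106) and -0.45 on LPD (SE 0.20, adjusted p = 0.439). Without CD Onc replicate 1 the CD value was -0.74 (adjusted p = 0.00314).

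The second question was what the low-protein diet did in each kind of liver. In Onc livers 5 of the 9 genes were called, with Glul, Rhbg, Oat and Got1 lower on LPD and Gls2 higher, where 20% of all genes were called, 11.3% lower and 8.66% higher. In Vec livers 0 of 9 were called by edgeR at an adjusted p under 0.05, against 0.308% of all genes. Of the 9, DESeq2 called 3 there (Oat, Got1 and Gpt), and its share of all genes is not given here. By edgeR, 4 had an unadjusted p under 0.05 (Oat, Gls2, Got1 and Gpt, against 9.87% of all genes). All 4 had each LPD Vec liver below each CD Vec liver, and so did Gpt2, where 9.02% of all genes were lower without overlap. Each group of livers enters a diet comparison and an injection comparison, so these share libraries. In a fit of the Onc groups alone, Gls2 (1.65, adjusted p = 0.0649) and Got1 (-1.49, adjusted p = 0.123) were not called. The interaction was called for Glul and Gls2, or 2 of 9, where 8.91% of all genes were called.

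**Figure D2:**
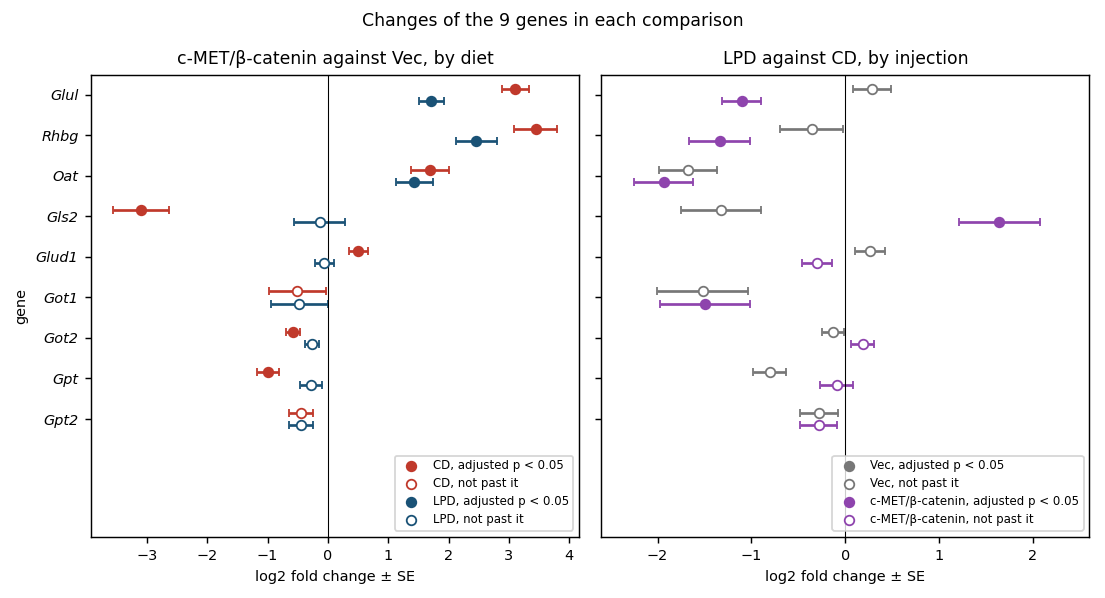
Log2 fold change ± SE (horizontal axis) of each gene for Onc against Vec on each diet (left) and LPD against CD in each injection group (right), with filled points past an adjusted p of 0.05. Gls2 moved by -3.10 on CD and -0.14 on LPD, whereas Glul, Rhbg and Oat rose on both diets.

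Calls were also set against the runs of dataset numbers in the header. The shares of all genes given above belong to the fit without a term for the runs. With a term for the runs, 4 of 9 genes were called for injection on CD, namely Glul (2.92, adjusted p = 0.00271), Rhbg (3.47, adjusted p = 0.00685), Oat (2.16, adjusted p = 0.0108) and Gls2 (-2.24, adjusted p = 0.0249). For injection on LPD, Glul and Rhbg stayed past the threshold and Oat did not (1.38, adjusted p = 0.0857). For diet in Onc livers only Oat stayed past the threshold (-2.48, adjusted p = 0.0073). The values of the others were -0.92 for Glul, -1.38 for Rhbg, -1.45 for Got1 and 0.78 for Gls2 (adjusted p = 0.113, 0.142, 0.297 and 0.362), and the Gls2 value was 1.64 without the term. For the interaction 0 of 9 passed it in edgeR (2 with an unadjusted p under 0.05, and 2 called by DESeq2 without the run term), with Glul at -1.21 (adjusted p = 0.176) and Gls2 at 2.11 (adjusted p = 0.11). Within the run of 7 libraries, which held 1 liver of each CD group, 2 LPD Vec and 3 LPD Onc livers, differences of mean log2(CPM + 0.5) had no test. On CD they were 2.74 for Glul, 3.14 for Rhbg, 1.79 for Oat and -2.46 for Gls2. For diet in Onc livers Gls2 differed by 0.74 within that run, against 1.85 in all 12 libraries computed in this way. The interaction within that run was -0.96 for Glul and 2.45 for Gls2, against -1.42 and 3.18 in all 12 libraries computed the same way.

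Ratios within a liver were used to compare enzymes that run opposite or parallel reactions, on counts per kilobase of exon. The Glul to Gls2 ratio was 2.32, 2.39 and 2.23 in CD Vec livers and 253.0, 395.0 and 82.5 in CD Onc livers. On LPD it was 6.82, 9.28 and 5.73 with Vec and 24.5, 39.2 and 16.9 with the oncogenes. All oncogene livers thus exceeded all Vec livers, and LPD lay between the CD groups. The mean difference of the log2 ratio with the oncogenes, over both diets, was 4.14 (exact permutation test within diets, two-sided, p = 0.005, adjusted p = 0.03 over 6 tests), the mean of 6.45 on CD and 1.83 on LPD. That p is the smallest that its 400 arrangements allow. The diet difference was -0.69 on average (exact permutation p = 0.425), the mean of 1.63 in Vec and -3.0 in Onc livers, with groups separated in opposite directions.

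The Got1 to Got2 ratio was 0.697 to 0.974 in CD Vec, 0.234 to 1.72 in CD Onc, 0.277 to 0.366 in LPD Vec and 0.242 to 0.305 in LPD Onc. LPD lowered it by 1.36 on the log2 scale on average, which did not pass the threshold over 6 tests (exact permutation p = 0.02, adjusted p = 0.06). Without CD Onc replicate 2 the difference was -1.75 (exact permutation, adjusted p = 0.015). The Gpt to Gpt2 ratio was 0.425 to 1.10 over all livers. Its differences were -0.17 for injection (exact permutation p = 0.6) and -0.19 for diet (exact permutation p = 0.415). Without CD Onc replicate 1 the diet difference was -0.37 (exact permutation, adjusted p = 0.03).

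**Figure D3:**
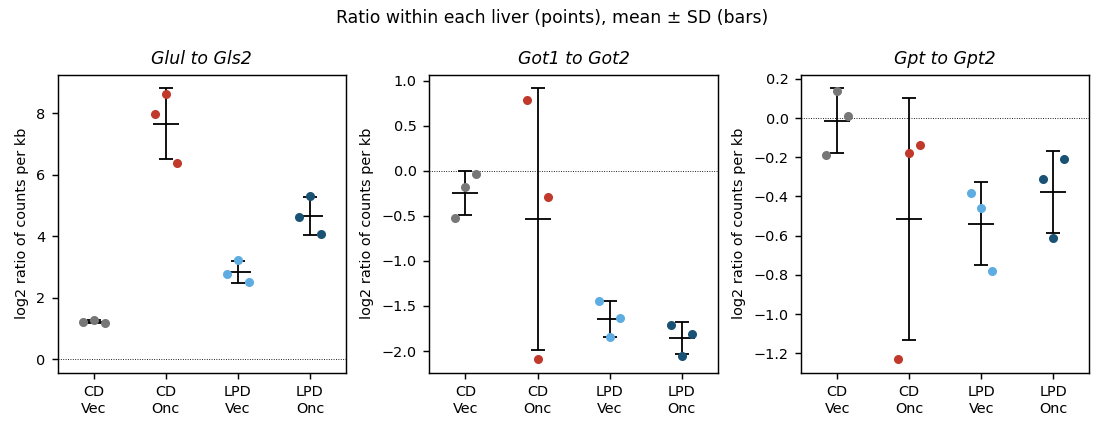
Log2 ratio of counts per kilobase of exon (vertical axis) for 3 pairs of enzymes in every liver, with points for mice and bars for mean ± SD (n = 3 per group, Onc: c-MET/β-catenin). The mean log2 ratio of Glul to Gls2 ran from 1.21 in CD Vec to 7.66 in CD Onc, and the Got1 to Got2 ratio spread most in CD Onc (SD 1.45).

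Other genes of nitrogen handling were then counted by group, from lists chosen with earlier results of these data known. On CD, 16.7% of all genes were lower with the oncogenes and 18.7% higher. Of 11 genes of pathways that free ammonia, namely histidine, serine and glycine breakdown and the asparaginases, 9 were lower and 0 higher, with a median log2 fold change of -2.25 against -0.01 over all genes. The asparaginase Aspg (-3.63, SE 0.29, adjusted p = 1.69e-05) and the histidine ammonia lyase Hal (-3.36, SE 0.32, adjusted p = 3.32e-05) changed most. Of 6 urea cycle genes, 5 were lower and 1 higher (median -2.28), with Cps1, which takes up the ammonia, at -3.10 (SE 0.48, adjusted p = 0.000577). On LPD, where 1.32% of all genes were called, edgeR and DESeq2 both called 0 of the 11 and 0 of the 6, with 2 and 0 at an unadjusted p under 0.05 and medians of -0.33 and -0.25. In Onc livers, LPD against CD raised 6 of the 11 and 3 of the 6, and lowered 0 and 1, where 8.66% of all genes were higher and 11.3% lower. In Vec livers, where 0.308% of all genes were called, it lowered 1 of the 6, Asl (-1.17, SE 0.18, adjusted p = 0.0262). The periportal list, which shares Hal and Sds with the 11, showed 6 of 7 genes lower on CD. On LPD edgeR and DESeq2 called 0 of 7, with 1 at an unadjusted p under 0.05, and Cyp2f2, a periportal cytochrome, was at -4.39 on CD (SE 0.23, adjusted p = 2e-06).

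Carriers of glutamine and glutamate changed in both directions. Among 10 pericentral or β-catenin target genes, 7 were higher and 0 lower on CD (median 1.95), and 4 were higher on LPD (median 0.92), where 1.15% of all genes were higher. The central cytochromes Cyp2e1 (-0.48, adjusted p = 0.238) and Cyp1a2 (0.17, adjusted p = 0.79), named after their values were seen, were not called on CD, and 5 of the 7 that rose were Axin2, Lgr5, Nkd1, Rnf43 and Znrf3, regulators of Wnt signaling. For the feedback inhibitor Axin2, the log2 change was 1.63 on LPD (SE 0.23, adjusted p = 0.00485), against 3.26 on CD. Of 12 tested carriers, with Slc1a2 in both lists, 5 were higher and 3 lower on CD (median 0.24), and 2 were higher on LPD. The shares of all genes on CD were 18.7% higher and 16.7% lower. The neutral amino acid carrier Slc1a5 had log2 changes of 3.76 on CD (SE 0.31, adjusted p = 1.73e-05) and 2.21 on LPD (SE 0.29, adjusted p = 0.00347). Slc1a4, another neutral amino acid carrier, rose by 4.12 on CD (SE 0.49, adjusted p = 0.000131). In Onc livers LPD against CD gave -2.14 for it (SE 0.44, adjusted p = 0.00696). In these livers 4 of the 12 carriers were lower on LPD and 0 higher, against 11.3% and 8.66% of all genes. Slc38a3 (-1.17), Slc38a4 (-1.49) and Slc25a13 (-0.93) were the carriers that fell on CD, and they are named here after their values were seen.

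Enzymes that use glutamine or glutamate in synthesis changed in both directions on CD, where 18.7% of all genes were higher and 16.7% lower. For the oncogenes on LPD, edgeR called 1.32% of all genes, so 0 calls in short lists say little. Of 10 enzymes that take the amide group of glutamine, most of which make nucleotides, hexosamines or NAD rather than amino acids, 2 were higher and 5 lower, and edgeR and DESeq2 called 0 on LPD (0 at an unadjusted p under 0.05). Asparagine synthetase Asns was 0.9902 ± 0.717 CPM in CD Vec, 13.4 ± 5.44 in CD Onc, 22.45 ± 11.8 in LPD Vec and 15.32 ± 5.90 in LPD Onc (SD, n = 3 each). It rose with the oncogenes on CD (3.73, SE 0.62, adjusted p = 0.000942) and with LPD in Vec livers (4.48, SE 0.63, adjusted p = 0.0227). Among 9 tested further aminotransferases that use glutamate, 1 was higher and 3 lower on CD. On LPD edgeR called 0 of them and DESeq2 called 1, with 2 at an unadjusted p under 0.05. Psat1, of serine synthesis, rose with the oncogenes on CD (4.68, SE 0.62, adjusted p = 0.000251) and with LPD in Vec livers (3.91, SE 0.61, adjusted p = 0.0262). Of 7 genes linking proline and ornithine with glutamate, 2 were higher and 2 lower on CD, and edgeR and DESeq2 called 0 on LPD (0 at an unadjusted p under 0.05). Aldh18a1, which turns glutamate toward proline, rose by 2.81 on CD (SE 0.46, adjusted p = 0.000772).

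**Figure D4:**
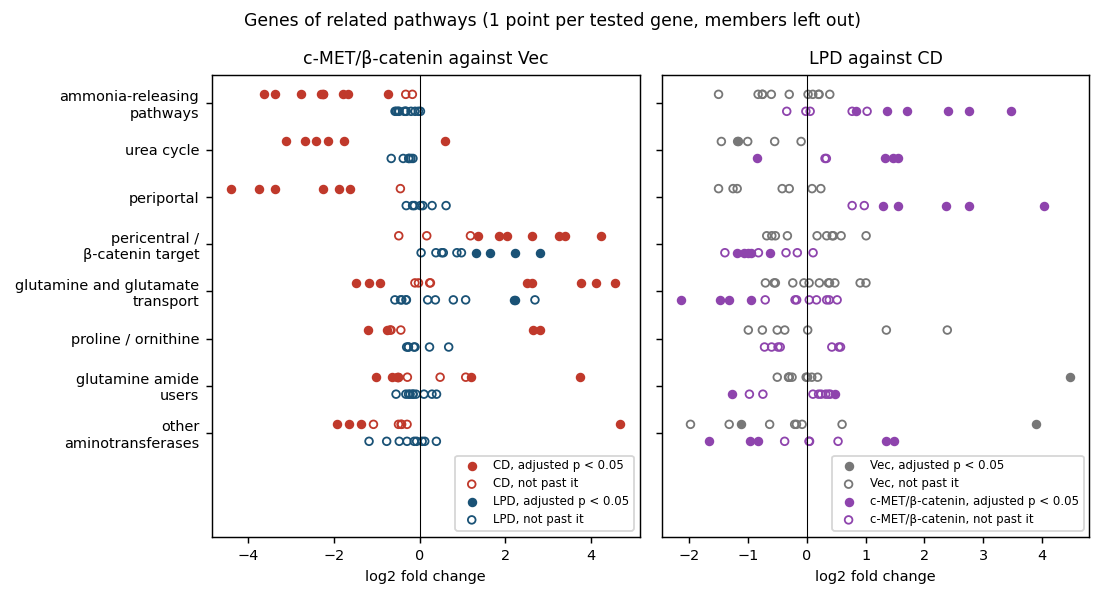
Log2 fold change (horizontal axis) of each tested gene of 8 lists, for Onc against Vec on each diet (left) and for LPD against CD in each injection group (right), with filled points past an adjusted p of 0.05 and the 9 genes described above left out. On CD, 9 of 11 genes of ammonia-releasing pathways and 5 of 6 urea cycle genes lie to the left of 0 as filled points, and on LPD 0 of them are filled.

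The genes nearest to each member over the 12 libraries were found among 9435 genes of at least 5 CPM on average, by the root mean square distance between standardized levels described for Rhbg. They are a description over 12 livers that share 4 groups. Glul was nearest to Slc13a3 (0.158 SD units), Tpx2 and Hacd2, and Rhbg to Lect2 (0.176), Slc1a2 and Ccnb2. Oat was nearest to Ttc38 (0.318), Lhpp and Dst. The nearest genes to Gls2 were the urea cycle gene Cps1 (0.171) and the histidine breakdown genes Ftcd and Uroc1. Got2 was nearest to Dera (0.142), Thrsp and Csnk2a1, and Gpt to Hpd (0.221), Afmid and Iyd. For Got1 they were Lonrf3 (0.255), Nnmt and Zap70, and for Gpt2 Lonrf3 (0.445), Asrgl1 and Mpc1-ps. Glud1 had its closest at 0.427 (Cdkn2c), followed by Smad3 and Pld2. Glul and Got2 were the members farthest apart (1.885 SD units).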

How the data were processed

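Bulk RNA-seq of 12 mouse livers was used. The authors aligned reads to mm10 with HISAT2, counted them per gene with featureCounts and deposited raw counts under Entrez identifiers. Versions, strand setting and handling of reads with several matches are not given in the sources used here, so a gene with a near-identical copy may be miscounted. The submitters' processing notes also name DESeq. The labels describe ribosomal RNA depletion and the methods mRNA selection. Chow is written HPD in the column names, and the labels were followed. All 12 columns were mapped. RefSeq GRCm38.p6 gave symbols for 25275 genes and GENCODE M21 for 18 more (93.1% in all). Gene positions came from RefSeq, and strands and exon lengths from GENCODE M21.

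Counts were tested in edgeR 4.0.16 (R 4.3.3) with TMM factors, filterByExpr and the robust quasi-likelihood test, with all 4 groups in 1 fit and Benjamini-Hochberg adjustment over 13947 genes. Another 13232 genes were not tested. CPM use TMM-scaled totals. Alternatives were other scalings, filters, DESeq2 1.42.0, replicate blocks, header runs, fits of 2 groups and leaving out each library. Ratios used counts plus 0.5. The fits were tested on simulated data first.

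The members and lists were chosen with earlier results of these data known. Named were all members, at most 3 called genes per list with the largest change, paralogs and the 3 nearest genes. A result for another gene named by this rule is not reported here. That mice are separate animals is taken from the labels. Totals of 19476209 to 31990267 counts leave counting error small for every member.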

Additional observations from a re-analysis of the deposited data

Results flagged for a closer look

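Glul changed less with c-MET/β-catenin on LPD than on CD, by a tested interaction of -1.39 on the log2 scale (SE 0.29, adjusted p = 0.0169 by edgeR). It was called in 12 of 12 fits that left out 1 library, and not with a term for the header runs (-1.21, adjusted p = 0.176).

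Gls2 fell with c-MET/β-catenin on CD and did not differ detectably on LPD, with a tested interaction of 2.97 (SE 0.61, adjusted p = 0.0168 by edgeR). It was called in 11 of 12 fits that left out 1 library, the exception being the fit without LPD Vec replicate 2 (2.78, adjusted p = 0.0529), and not with a term for the header runs (2.11, adjusted p = 0.11).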

How the results depend on the processing

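The count of members called on CD was 7 and fell to 4 with a term for the header runs. In Vec livers the diet count was 0, but 1 with RLE factors, total counts or no filter, 3 with DESeq2 and 0 to 2 with a library left out. In Onc livers the diet count was 5, against 1 with the header run term, 3 in a fit of the 2 groups and 2 to 5 with a library left out. The interaction count was 2, 0 with the header run term, and 1 to 2 with a library left out. Shares of all genes called under these settings are not given here, and the cause was not tested.

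Correlations between same-numbered libraries were low, from -0.183 to 0.167, and 2 of 18 exceeded 0.1. With single libraries in groups of 3, they cannot decide whether same-numbered mice were paired. With a replicate block the counts were 6, 3, 0, 4 and 2. The Glul to Gls2 ratio with the block kept its difference of 4.14 (adjusted p = 0.188), where 6 differences allow few sign arrangements. Within the run of 7 libraries its diet difference was 0.002. With a library left out, log2 ratio differences were -0.579 to 0.14 (injection) and -1.749 to -1.03 (diet) for Got1 to Got2, and -0.264 to 0.009 (injection) and -0.369 to -0.097 (diet) for Gpt to Gpt2. The diet difference passed the threshold without CD Onc replicate 2 for the former and without CD Onc replicate 1 for the latter.

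Signs turned only for differences that were not called. With a library left out, ranges were -0.32 to 0.054 (Gls2) and -0.13 to 0.018 (Glud1) for injection on LPD, -0.21 to 0.011 (Gpt) and -0.43 to 0.015 (Gpt2) for diet in Onc livers, and -0.55 to 0.12 (Oat), -0.42 to 0.72 (Got1) and -0.15 to 0.30 (Gpt2) for the interaction. Total counts gave 0.057 for Glud1 on LPD and -0.132 for the Got1 interaction, the stricter filter -0.003 for the latter, and the Gpt2 interaction was 0.042 with the block and 0.224 with the header run term.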
